A study of Mus musculus with 6 samples.

Results

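The regions described here are narrow H3K4me3 peaks that were listed at the same place in 6TCF-treated and in untreated mouse embryonic fibroblasts. A region is a one-to-one pair, made of 1 treated and 1 untreated peak that overlap each other by at least 1 bp and no other peak of the opposite list. Both members had to be 1000 bp or narrower. Of 949 such pairs, 32 overlapped a peak of an input list and were dropped, none lay on the mitochondrial genome, and 917 were kept. They made up 5.73% of the 16014 pairs of any width that were kept under the same conditions. Members were selected on presence and width in both H3K4me3 lists, so their widths and overlaps are given as a description without a test.

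The cells were C57BL/6 mouse embryonic fibroblasts (MEFs), primary connective-tissue cells grown from embryos. They were either treated with the chemical combination named 6TCF or left as untreated controls, and both groups were taken on day 6. The growth protocol in the labels, which is the same for all samples, gives a DMEM-based medium with serum and basic fibroblast growth factor. The age of the embryos, the number of cultures and the compounds in 6TCF are not given in the labels used here. Each condition has an H3K4me3, an H3K27me3 and an input DNA library from chromatin immunoprecipitation followed by sequencing (ChIP-seq), which makes 6 libraries with 1 per group. The series title places the work in the trans-differentiation of fibroblasts by chemicals. The antibody field of the labels names H3K4me2 for the libraries titled H3K4me3 and H3K4me1 for those titled H3K27me3. The titles are followed here, and positions alone could not check which mark was precipitated. H3K4me3 peaks numbered 18185 in the treated list, with a median width of 2026 bp, and 17168 in the untreated list, with a median of 2115 bp. Read depth is unknown, and with 1 library per group no spread between replicates could be measured.

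Trimethylation of histone H3 at lysine 4 is written by the SET1 and MLL complexes on nucleosomes around transcription start sites, above all in CpG islands. Its breadth differs between promoters, and very broad domains are known to lie at genes that define the identity of a cell. Narrow peaks are found at promoters with little or focal transcription and at some distal regulatory elements. Positions are given in mm9, the build named in the submitters' processing notes. No gene annotation of that build was used here, so regions are named by position and no promoter or gene is assigned.

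Fewer than 50% of the narrow peaks of either list had a narrow partner in the other condition. Before the input filter, the treated list held 2534 peaks of 1000 bp or narrower and the untreated list 2325. A narrow untreated partner was found for 949 of the treated peaks, which is 37.5% (95% Wilson interval 35.6 to 39.4). The same 949 pairs covered 40.8% (38.8 to 42.8) of the narrow untreated peaks. The remaining peaks differed between the lists. Among narrow treated peaks 264 had an untreated partner over 1000 bp (10.4%, 9.29 to 11.7), and 1296 had no overlapping peak (51.1%). Among narrow untreated peaks 786 had a treated partner over 1000 bp (33.8%, 31.9 to 35.8), and 545 had no overlapping peak (23.4%). These wider partners were close to the limit, with a median width of 1116.5 bp for the untreated ones and 1166 bp for the treated ones. Only 13 of the untreated and 29 of the treated partners were over 2000 bp. An untreated narrow peak therefore more often faced a wider peak, and a treated narrow peak more often faced none. For peaks of any width, 16153 one-to-one pairs were found among 18185 treated and 17168 untreated peaks. Peaks with no overlapping peak lie outside these pairs, so their share of all peaks was lower than among narrow peaks in both lists. The exact share of all peaks with no overlapping peak was not computed. The difference between the lists is thus not shown to be particular to narrow peaks. Peaks with no overlapping peak were narrower than those in narrow pairs, with medians of 769 against 826 bp in the treated list and 725 against 776 bp in the untreated list.

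**Figure D1:**
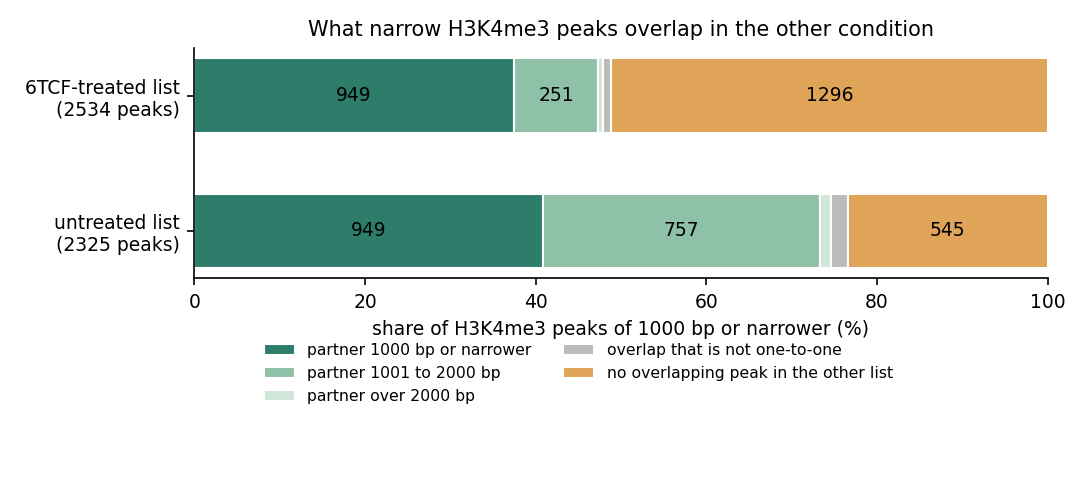
Share (%) of all H3K4me3 peaks of 1000 bp or narrower by what they overlap in the other condition, with peak numbers in the larger segments. Both lists share 949 narrow pairs, while 1296 treated and 545 untreated narrow peaks overlap nothing in the other list.

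The members were similar in width in both conditions and slightly wider in treated cells. Treated members had a median width of 832 bp (quartiles 725 and 916, range 383 to 999), and untreated members 781 bp (quartiles 670 and 879, range 367 to 1000). The chromatin had been sheared to an average of 600 bp, and the mean width of the pair was at or under that length in 52 pairs (5.67%). Treated over untreated width had a median log2 ratio of 0.06, a 1.04-fold difference, with a standard deviation of 0.31 across pairs. Of the 917 pairs 544 were wider in treated cells (59.3%, 56.1 to 62.5), 371 were wider in untreated cells and 2 had equal widths. With the limit lowered to 800 bp the median log2 ratio was 0.025 (95% interval of the median -0.018 to 0.043) and the share 54.1% (48.0 to 60.1) of 255 pairs, so both intervals then included equal width. Pairs with both members over 1000 and up to 2000 bp, called intermediate here, were wider in treated cells at 57.1% (55.6 to 58.6) of 4203. Pairs with both members over 2000 bp, called wide, were so at 36.3% (35.3 to 37.3) of 8250, with a median log2 ratio of -0.06. The narrow and the wide pairs thus lay on opposite sides of equal width, by medians that are small beside the spread across pairs.

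Larger differences in width were counted in the narrow pairs and over all pairs. At least a 1.5-fold difference was found in 53 pairs wider in treated cells (5.78%) and 16 wider in untreated cells (1.74%). Over all pairs the same rule was met by 5.0% and 2.57%. Both widths were used to choose the members and the limit of 1000 bp bounds the ratio, so nothing is read from these shares. At least 2-fold was reached by 1 pair in each direction, against 1.12% and 0.518% of all pairs. Log2 widths of the members had a Pearson correlation of 0.301 between the conditions, and the widths a Spearman correlation of 0.234, across 917 sites that share the same pair of libraries. In intermediate and wide pairs the Pearson correlations were 0.664 and 0.823. The widths of narrow pairs cover a shorter range, which bears on this comparison.

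The pair with the highest ratio lay on chromosome 4. It was 945 bp wide in treated cells (chr4:116882857-116883801) and 383 bp in untreated cells (chr4:116883132-116883514), a 2.47-fold difference. The untreated peak lay wholly inside the treated one. A pair on chromosome 9 followed, with 980 bp in treated cells (chr9:114435646-114436625) and 491 bp in untreated cells, just under a 2-fold difference. The next 3 were at chr8:24148400-24149360 with 961 against 491 bp, chr6:47689885-47690623 with 739 against 381 bp, and chr8:108194703-108195460 with 758 against 394 bp.

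The lowest ratio, where the untreated peak was the wider one, was on chromosome 13. The treated peak there was 487 bp and the untreated peak (chr13:114013837-114014820) 984 bp wide, a 2.02-fold difference, and the treated peak lay inside the untreated one. It was followed by chr19:58978113-58979007, with 481 bp treated and 895 bp untreated, and chr2:46297849-46298786, with 518 and 938 bp. The last of the 5 lowest were chr13:13981718-13982569, with 496 and 852 bp, and chr16:16559756-16560541, with 463 and 786 bp. In each of these 5 regions the treated peak lay wholly within the span of the untreated one.

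At the narrow end the 2 lists gave nearly the same intervals. The smallest pair, chr4:132652606-132652988, was 383 bp wide in the treated and 367 bp in the untreated list. The next, chr8:93410921-93411306, was 386 and 370 bp, and chr12:56331520-56331904 was 385 and 373 bp. In these 3 pairs both peaks covered between 95.8% and 96.9% of the joined span, which runs from the lower start to the higher end. Across the 52 pairs with a mean width of up to 600 bp the median of that share was 78.4%. The 3 smallest pairs are thus well above the median of their own width class.

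**Figure D2:**
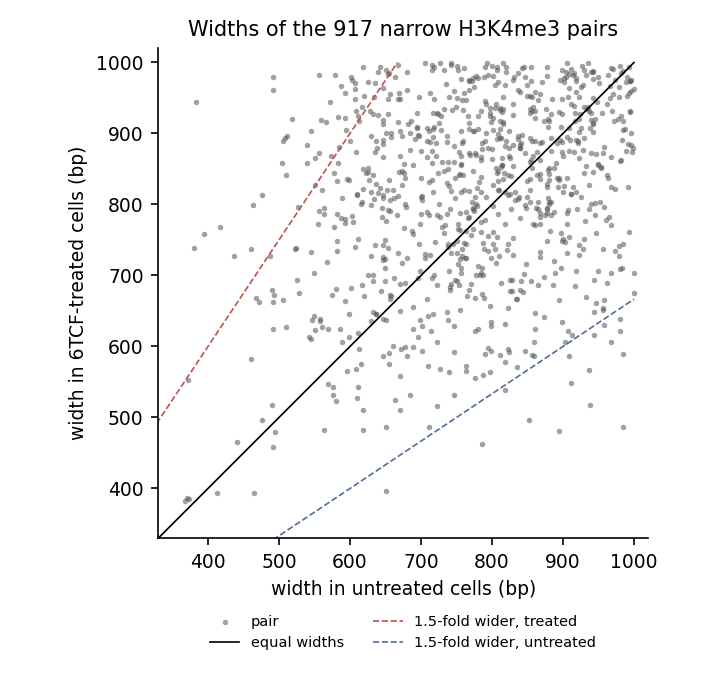
Width in 6TCF-treated against untreated cells (bp) for each of the 917 narrow pairs, with lines at equal width and at 1.5-fold. The points spread around the line of equal width with 544 pairs above it, and 53 and 16 pairs at or beyond the treated and untreated 1.5-fold lines.

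The members of a pair were centred close to each other. The midpoints of both peaks were a median of 60.5 bp apart, and 190 bp at the 95th percentile. This was 7.78% of the mean width in narrow pairs, against 4.40% in intermediate and 3.77% in wide pairs. In bases, midpoints of wide pairs were farther apart, at a median of 111.5 bp. Both peaks covered a median of 79.4% of the joined span in narrow pairs (quartiles 70.4 and 87.8), 87.0% in intermediate pairs and 89.4% in wide pairs. Starts and ends moved alike: the median treated start lay 15 bp before the untreated one and the median treated end 25 bp after it. The untreated peak lay inside the treated one in 288 narrow pairs, and the treated peak inside the untreated one in 139. Intermediate pairs had the same order, with 1352 and 830. For wide pairs the numbers were 1567 and 3140, the reverse order, and over all pairs 4428 and 4879.

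Poor agreement in position was seen in 24 narrow pairs (2.62%), in which both peaks covered less than 50% of the joined span. Over all pairs this held for 329 (2.05%), with 0.143% of intermediate and 0.715% of wide pairs. The lowest 3 narrow pairs, chosen after their values were seen, include pairs that meet only at their edges. On chromosome 4 a treated peak at chr4:108035107-108036065 and an untreated peak at chr4:108036044-108036961 shared 22 bp. On chromosome 5 the peaks at chr5:30339162-30339947 and chr5:30339927-30340508 shared 21 bp. On the X chromosome 312 bp were shared, which is 27.2% of the joined span from chrX:131497462 to 131498609. The regions on chromosomes 4 and 5 count as present in both conditions through these edges alone.

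**Figure D3:**
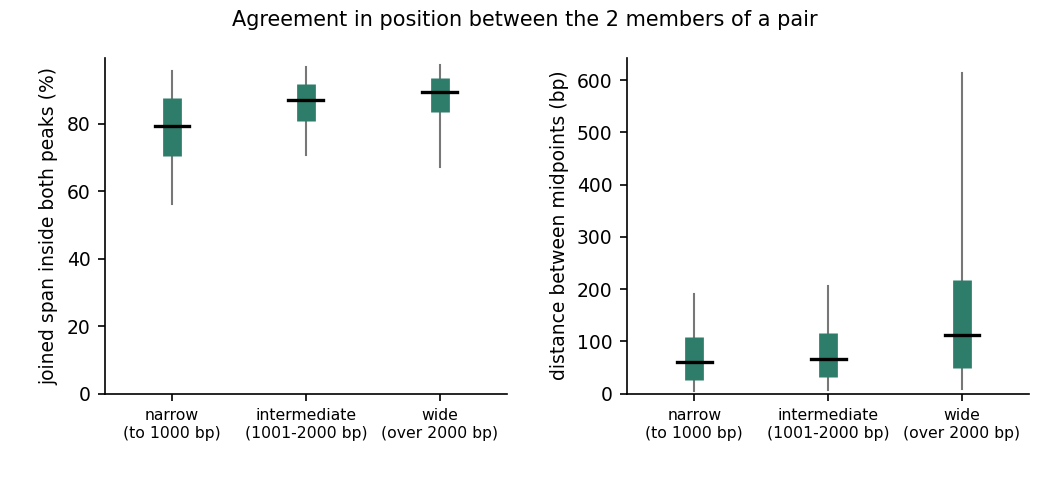
Share of the joined span covered by both peaks (%, left) and distance between midpoints (bp, right) for narrow, intermediate and wide pairs, with the median as a line, quartiles as a bar and the 5th to 95th percentile as a thin line. Narrow pairs share less of their span (median 79.4%) although their midpoints are the closest in bases (median 60.5 bp).

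Narrow pairs lay farther, by the median, from wide H3K4me3 peaks than intermediate or wide pairs did. Pairs just over the 1000 bp limit lay at similar distances. The distance from the edge of a member to the nearest peak over 2000 bp in the same list had a median of 64.8 kb in the treated list (95% interval of the median 58.6 to 71.6) and 64.5 kb in the untreated list (57.8 to 71.7). The treated quartiles were 27 and 148 kb, and the untreated quartiles 26.9 and 148 kb. For intermediate pairs the medians were 45 kb (42.9 to 47.4) in treated and 45.4 kb (43.3 to 47.8) in untreated cells. Wide pairs, measured to the nearest other wide peak, stood at 49.7 kb (48.1 to 51.9) and 48.3 kb (47.0 to 50.2). Pairs with only 1 narrow member stood at 50.2 and 53.8 kb where the untreated member was narrow. Where the treated member was narrow they stood at 57.5 and 57.0 kb. Pairs whose wider member was up to 50 bp over the limit had 61.4 and 62.8 kb. Over all pairs the medians were 49.6 and 48.8 kb. With the narrow limit lowered to 800 bp, the interval of the narrow median included these values in both lists. Peaks are taken as independent in these intervals, which hold counting error alone, and no test between width classes was made because peaks are not replicates.

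Few narrow pairs had a wide peak close by. A wide peak within 5 kb was found for 14 narrow pairs in the treated list (1.53%, 0.912 to 2.55) and 20 in the untreated list (2.18%, 1.42 to 3.34). The shares of all pairs were 5.28% and 5.53%. Within 10 kb there were 69 narrow pairs in treated cells (7.52%, 5.99 to 9.41) and 74 in untreated cells (8.07%, 6.48 to 10.0), against 12.6% and 13% of all pairs. Within 50 kb the treated list had a wide peak for 41.1% of narrow and 50.2% of all pairs. Within 2 kb there were 2 and 1. The smallest distance of a member was 1654 bp in the treated and 176 bp in the untreated list, against 47 and 36 bp over all pairs.

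Read the other way, the share of pairs that were narrow rose with distance from a wide peak. In the treated list it was 1.86% (1.07 to 3.22) at over 2 to 5 kb, 4.68% (3.61 to 6.04) at over 5 to 10 kb and 5.12% (4.59 to 5.71) at over 10 to 50 kb. It was 6.19% (5.42 to 7.06) at over 50 to 100 kb and 7.18% (6.47 to 7.96) beyond 100 kb. The untreated list had the same order, from 2.79% (1.80 to 4.32) at over 2 to 5 kb to 7.24% (6.52 to 8.02) beyond 100 kb. The share of intermediate pairs ran the opposite way, from 31.6% at over 2 to 5 kb to 24.4% beyond 100 kb in the treated list. The same pairs enter both lists, so their likeness is not independent support.

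**Figure D4:**
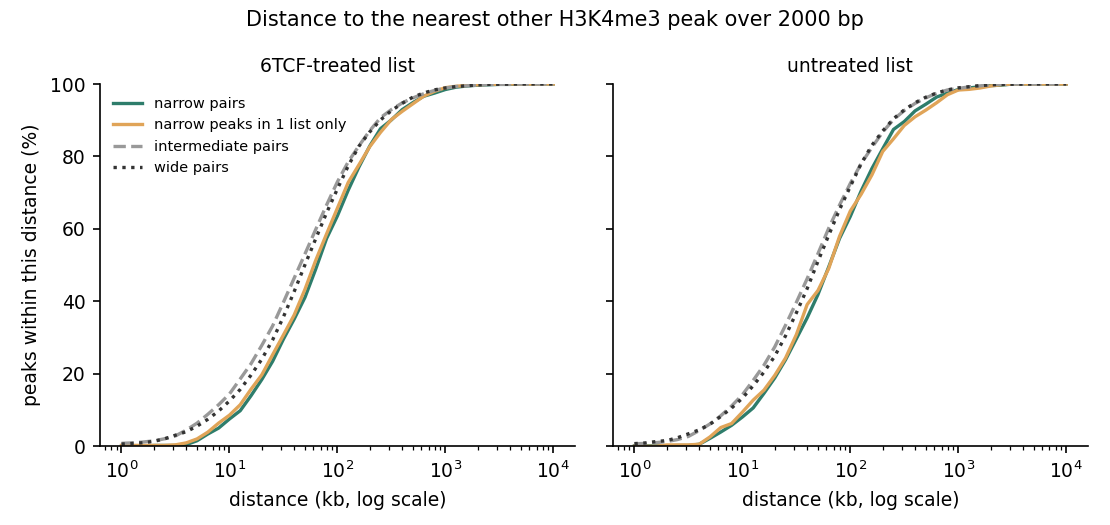
Cumulative share (%) of narrow, intermediate and wide pairs and of narrow peaks in 1 list only within a given distance (kb, log axis) of the nearest other H3K4me3 peak over 2000 bp in the same list. The curves of both narrow sets run to the right of the others, with medians of 59.5 to 64.8 kb against 45 to 49.7 kb.

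**Figure D5:**
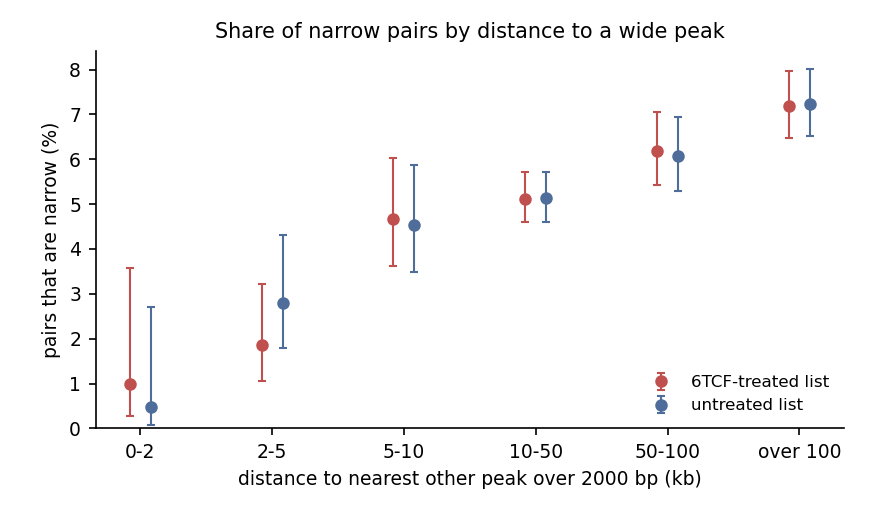
Share of all pairs that are narrow (%) by distance to the nearest other peak over 2000 bp (kb), in the treated and the untreated list, with 95% Wilson intervals. The share rises from 1.86% and 2.79% at 2 to 5 kb to 7.18% and 7.24% beyond 100 kb.

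Narrow peaks that were in 1 list only were measured in the same way. Their median distances were 59.5 kb (56.2 to 66.7) for 1283 treated-only peaks and 64.8 kb (54.2 to 72.7) for 542 untreated-only peaks, both off input peaks. Shares within 5 kb were 2.03% (1.39 to 2.95) and 2.40% (1.41 to 4.06). Whether these values differ from those of the narrow pairs was not tested. Within the narrow pairs the Spearman correlation of mean width with distance was 0.0024 in the treated and -0.0441 in the untreated list, across 917 sites.

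A total of 314 narrow pairs (34.2%, 31.2 to 37.4) had no peak over 2000 bp within 100 kb in either list, against 26.5% of all pairs. For intermediate and wide pairs the shares were 24.7% (23.4 to 26.0) and 26.2% (25.3 to 27.2). The 5 most remote pairs were between 1701 and 2556 kb from such a peak by the smaller of both distances. The farthest, chr14:6093058-6093673, was 614 bp wide in the treated and 599 bp in the untreated list, and lay 2557 kb and 2556 kb from the nearest wide peak. It was followed by chr7:11065753-11066726, with 974 and 768 bp and a distance of 1997 kb in both lists. The third, chr18:29798049-29798969, was 874 and 635 bp wide and 1969 kb away in both lists. At chr15:21038844-21039540, with 667 and 657 bp, the distance was 4301 kb in treated but 1926 kb in untreated cells. The last, chr3:3507659-3508617, was 950 and 943 bp wide and 1701 kb away in both lists.

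Ranked by the larger of their treated and untreated distances, the 5 members nearest to a wide peak lay within 5 kb of one in both lists. At chr15:98923767-98924815 a pair of 953 bp treated and 854 bp untreated lay 1.99 and 2.09 kb from wide peaks of 3219 and 2168 bp. At chr1:135314450-135315305 the widths were 815 and 826 bp and the distances 3.46 and 3.83 kb. At chr10:81111326-81112324 they were 999 and 706 bp, with distances of 3.86 and 3.77 kb. The other two of the 5 nearest were on chromosome 11. At chr11:50184761-50185568, with 808 and 634 bp, the neighbour was a treated peak of 5844 bp and an untreated peak of 6111 bp, 4.23 and 4.28 kb away. At chr11:35799117-35800089, with 960 and 746 bp, it was 2218 and 2181 bp wide, 4.31 and 4.40 kb away.

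The wide neighbour was mostly the same region in both conditions. For 740 of 917 narrow pairs (80.7%, 78.0 to 83.1) the nearest wide treated and untreated peaks overlapped each other, and the distances to them then differed by a median of 170 bp. In 177 pairs the nearest wide peak was another one. In 161 of these, the nearer wide peak had a counterpart of up to 2000 bp in the other list, which did not count as wide. How far these counterparts were below 2000 bp was not measured. No counterpart was listed in 15, and in 1 it was itself over 2000 bp. The nearer peak was treated in 84 and untreated in 93 of the 177. The nearest wide peaks had a median width of 2868 bp in the treated and 2997 bp in the untreated list, where all wide peaks had 2807 and 2889 bp. They lay at the higher coordinate in 50.4% and 50.1% of pairs.

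The nearest peak of any width was a median of 27.7 kb away in the treated and 29.1 kb in the untreated list, close to the 28.0 and 29.0 kb of wide pairs. Intermediate pairs had nearer neighbours, at 20.9 and 22.2 kb. The neighbour of a narrow pair was itself narrow in 19.8% of treated and 21.0% of untreated cases, and in 13.6% and 13.3% over all pairs. It was over 2000 bp in 41.8% and 46.7%, against 49.5% and 53.4% over all pairs. The distance to peaks in general was therefore like that of wide pairs, and the kind of neighbour differed.

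Distances between narrow pairs were measured without a reference from other width classes, so they are a description alone. The next narrow pair was a median of 599.6 kb away, and 22 had another within 10 kb. Within 2 kb there were 8, which form 4 couples. The closest couple, on chromosome 8, was 163 bp apart, at chr8:108193681-108194539 and chr8:108194703-108195460. The others were at chrX:7290430-7291181 and chrX:7291480-7292344, 298 bp apart, at chr2:156217054-156218011 and chr2:156218503-156219435, 491 bp apart, and at chr6:67118125-67119099 and chr6:67120045-67120932, 945 bp apart.

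H3K27me3, the mark written by Polycomb repressive complexes, was listed at few pairs of any width class. After removal of H3K27me3 peaks that overlap an input peak, 8 pairs were overlapped by one of 587 treated H3K27me3 peaks (0.872%, 0.443 to 1.71) and 10 by one of 999 untreated ones (1.09%, 0.593 to 2.00). Over all pairs the shares were 0.980% and 2.77%. Intermediate pairs had 1.31% (1.01 to 1.7) in treated and 4.24% (3.67 to 4.89) in untreated cells, and wide pairs 0.533% (0.398 to 0.715) and 1.43% (1.20 to 1.71). The classes differ in length, and both the narrow and the wide pairs had lower shares than the intermediate ones. Whether length bears on these shares was not tested. In pairs per Mb of joined span, the untreated values were 12.2 for narrow, 26.0 for intermediate, 4.12 for wide and 10.7 for all. The treated values were 9.79, 8.04, 1.53 and 3.79 in the same order. Per pair and per Mb the narrow pairs had a lower untreated value than intermediate ones. In treated cells the intervals of the shares per pair overlapped.

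These H3K27me3 peaks lay at 15 pairs in all, 3 of them in both conditions. A peak in either condition was thus found at 1.64% of narrow pairs (0.994 to 2.68), against 3.403% of all pairs. In both conditions the share was 0.327% (0.111 to 0.957), close to the 0.343% of all pairs. The full H3K27me3 lists had median widths of 149 bp treated and 211.5 bp untreated, against 146 and 142 bp in the input lists. The H3K27me3 peaks at these 15 pairs were 106 to 499 bp wide, below the mean sheared length. The widest was at the pair chr15:102765114-102766098, of 985 bp treated and 916 bp untreated, where a treated H3K27me3 peak of 499 bp reached past the end of both. Next was chr17:47546818-47547603, of 543 and 612 bp, where the untreated H3K27me3 list had a peak 403 bp wide. At chr5:139296668-139297659, of 992 and 760 bp, and chr3:88057955-88058953, of 999 and 815 bp, the untreated H3K27me3 peaks were 274 and 263 bp wide. At chr5:33785477-33786317, of 692 and 841 bp, a treated one was 253 bp wide. The 3 pairs with an H3K27me3 peak in both conditions stood together on chromosome 8, from 108188230 to 108195460. Their H3K4me3 peaks were 795, 859 and 758 bp wide in the treated list and 848, 539 and 394 bp in the untreated one. All 3 H3K27me3 overlaps in both conditions therefore come from 1 stretch, which also holds the closest couple named above. Of the 15 pairs, 9 had a wider treated than untreated H3K4me3 peak, and the log2 ratios ran from -0.28 to 0.94.

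Members were spread over 20 chromosomes, the autosomes and X, and none of the 4 pairs on Y was narrow. The share of pairs that were narrow lay between 4.10% (3.10 to 5.41) on chromosome 7 and 8.17% (5.98 to 11.1) on chromosome 18, around 5.73% over all. Chromosome 4 had the most members, 78 of 1053 pairs (7.41%, 5.98 to 9.15). The median log2 width ratio was above 0 on 18 of the 20 chromosomes. The exceptions were chromosome 2, at -0.02 with 75 members, and X, at -0.0038 with 35. The median distance to a wide treated peak ran from 39.5 kb on chromosome 17 to 121 kb on chromosome 13.

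Pairs on either side of the 1000 bp limit were set side by side. The 3 just inside had a wider member of 1000 bp, in each case the untreated one, and treated members of 676, 962 and 704 bp, on chromosomes 1, 2 and 4. The 3 just outside had a wider member 1 bp over the limit and partners of 728, 871 and 875 bp, on chromosomes 11, 18 and 7. In 194 pairs whose wider member was less than 50 bp under the limit or at it, the median distance to a wide peak was 65.8 kb in treated and 57.5 kb in untreated cells, and in 222 pairs up to 50 bp over the limit it was 61.4 and 62.8 kb. Both peaks covered a median of 79.6% and 79.7% of the joined span.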

How the data were processed

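Formaldehyde-fixed chromatin was sheared to 600 bp on average before precipitation, per the labels' protocols. MACS 1.4.3, HOMER, Bowtie2 2.2.5, CASAVA 1.7 and the build mm9 are named, without role or order, in the submitters' processing notes. The deposited lists hold 1 row per peak with chromosome, start, end and a constant strand sign. They give no height, score or read number, and the sources used here do not state the calling threshold or control. Depth, antibody yield and threshold can each set whether a peak is listed and how wide it is, so an unlisted region is not shown to lack the mark.

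Width is the end minus the start of the deposited row, and starts are printed counted from 1. Python 3.11.15 was used for overlaps and distances, with numpy 2.4.6, scipy 1.17.1 and pandas 2.3.3. Pair counts were checked against bedtools 2.31.1, and the steps were tested on simulated data. Shares have 95% Wilson intervals and medians have intervals from order statistics. Both count each peak as independent and hold counting error alone. No test was made, since each group has 1 library. Regions were named by rank: the 5 highest and lowest width ratios, the 5 nearest to a peak over 2000 bp (by the larger of both lists' distances) and the 5 farthest (by the smaller), the 5 with the widest H3K27me3 peak, the 3 smallest and the 3 on each side of 1000 bp. The members and these lists were chosen with earlier results of these data known. The gene and promoter tables at hand are of another build and were not used here.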

Additional observations from a re-analysis of the deposited data

How the results depend on the processing

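Of 116 values recomputed under other settings, 93 stayed close to the reported ones and 23 moved. A change of direction could be scored only for the log2 width ratio and the ratios of medians, and none was seen there. Counts, distances and shares cannot change sign. Moved means outside the 95% interval or, for counts and for ratios of medians, by over 1.5 times. With an upper width of 800 bp for a narrow peak there were 255 pairs, a median log2 width ratio of 0.025 (-0.018 to 0.043), 54.1% (48.0 to 60.1) wider in treated cells, intervals that include equal width, 7 and 2 pairs past 1.5-fold in the treated and untreated direction, median distances of 55.8 kb treated and 57.4 kb untreated, and 30.2% without a wide peak within 100 kb. With 1200 bp there were 1842 pairs, a log2 ratio of 0.086, 136 and 40 pairs past 1.5-fold and a treated distance of 58.5 kb. With wide peaks defined as over 1500 bp the distances were 46.8 kb treated and 48.3 kb untreated, and 26.4% of pairs were remote. Over 3000 bp gave 141 and 127 kb and 54.1%. The number of pairs past the fold was 200 and 88 at a width ratio of 5 to 4, and 1 and 1 at 2-fold. The median distance of narrow pairs relative to all pairs, 1.31 in treated and 1.32 in untreated cells, stayed above 1 in each of 10 alternatives. It ran from 1.13 to 1.33 and from 1.17 to 1.34. At the 800 bp limit the treated median distance had an interval of 47.6 to 68.5 kb and the untreated one 47.9 to 76.0 kb. These intervals included the medians of all pairs, 49.6 and 48.8 kb. The overlap rule, the input filter, distances from centre to centre, the sex chromosomes and the choice of H3K27me3 peaks moved no value. No paired analysis was possible because each group holds 1 library, and no replicate could be left out. Depth is unknown, and the numbers of H3K27me3 peaks at narrow pairs are too small to rank conditions.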

Other observations

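Among pairs with only 1 narrow member, those narrow in untreated cells were overlapped by an untreated H3K27me3 peak at 40 of 775 (5.16%, 3.81 to 6.95). Those narrow in treated cells were so at 1 of 262 (0.382%, 0.0674 to 2.13), against 10 of 917 when both members were narrow. The same share was 2.77% over all pairs and 4.24% in intermediate pairs. A treated H3K27me3 peak overlapped 15 of the 775 (1.94%) and 1 of the 262 (0.382%), against 0.980% of all pairs. The classes were set by the direction of the width difference, and a wider treated peak at H3K27me3 regions was already known for these lists, so this is no independent support. The difference between the classes was not tested.

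The 32 narrow pairs dropped for overlap with an input peak were narrower than the members kept, with a treated median of 711.5 bp and an untreated median of 575.5 bp. Of these, 22 were wider in treated cells, 5 lay on chromosome 9, 4 on X and 1 on Y.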
